A study of Mus musculus with 18 samples.

Results

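Foxp3 and the genes of the interleukin-2 (IL-2) receptor and STAT5 axis were followed in mouse regulatory T (Treg) cells: Foxp3, Il2ra, Il2rb, Il2rg, Stat5a, Stat5b, Socs2 and Cish. These 8 genes were taken by name from the 23953 entries of the RNA-seq table, and all 8 passed the filter on low values. The cells were CD4+CD25hi Treg cells sorted from C57BL/6 mice, with 3 libraries from each of 6 genotypes, 18 libraries in all. In the miR-23 Tg, miR-24 Tg and miR-27 Tg groups, T cells overexpressed 1 microRNA of the miR-23 cluster, and in the cluster Tg group they overexpressed the whole cluster. DKO cells came from mice in which the miR-23a and miR-23b clusters were both deleted in T cells, and WT was the control group; the labels write these genotypes as DKO Tg and WT Tg. The series title names CD4cre as the driver. Cd4-driven Cre is not limited to Treg cells, so in such mice conventional T cells carry the change too. Conventional T cells were not analysed here. Age, sex, the number of animals behind a library and whether WT mice carried Cre are not given in the labels, so the p-values measure the spread between these samples.

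IL-2 binds a receptor of 3 chains, and its kinases JAK1 and JAK3 activate the transcription factors STAT5A and STAT5B. Activated STAT5 maintains Foxp3, the transcription factor that defines Treg cells, and switches on Cish and Socs2, whose products restrain cytokine signalling. Treg cells consume IL-2 that conventional T cells make, and depend on it for their survival.

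Levels are RPKM (reads per kilobase of transcript and per library size), given as mean ± SD with n = 3 libraries a group. Differences are log2 fold changes from limma on log2(RPKM + 0.5), with a 95% interval where one is given. A gene was called when its adjusted p, by Benjamini-Hochberg over 11520 genes in that comparison, was under 0.05, two-sided. The low values of the table put the depth at about 20.22 to 32.03 megareads a library. At that depth the smallest number of reads behind any of the 8 genes was about 1100, for Socs2 in miR-24 Tg library 2, or a counting error of about 3.1%. Counting error was therefore small beside the spread between libraries.

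Reads at the Mir23a, Mir24-2 and Mir27a loci were highest in the groups labelled as overexpressing them. Mir27a was at 50014 RPKM or more in miR-27 Tg, between 13710 and 24076 in cluster Tg, at 0 in DKO and at 0 to 347 in WT. Mir23a was at 0 in DKO and 0 to 155 in WT, and Mir24-2 at 0 to 11.5 and 0 to 50.3. These ranges overlap, so the reads do not tell DKO from WT. Loci of the miR-23b cluster were not followed here, and such reads do not measure the mature microRNA. T cell genes Cd3e, Cd3d, Cd3g, Cd4 and Cd28 summed to between 1460 and 1840 RPKM in every library, and the 5 Treg markers Foxp3, Il2ra, Ctla4, Ikzf2 and Tnfrsf18 to between 988 and 1540. These genes were therefore read in each library. The cells were sorted on CD25, which Il2ra encodes, and Foxp3 and Il2ra are among the 8 genes followed. The sums are thus no independent check of the cell type. Markers of other cells also varied with genotype. The 10 B cell genes summed to 19.7 to 25.1 RPKM in WT and 19.6 to 23.2 in DKO, against 37.9 to 46.9 in miR-23 Tg, 40.4 to 96 in miR-24 Tg, 38 to 110 in miR-27 Tg and 30.1 to 45.9 in cluster Tg. For 9 myeloid genes the ranges were 6.95 to 8.96 in WT, 8.14 to 11 in DKO, 17.5 to 31.2 in miR-23 Tg, 16.1 to 87.2 in miR-24 Tg, 14.5 to 56.3 in miR-27 Tg and 14.9 to 18 in cluster Tg. No B cell marker was at 0 in any library. Cycling-cell genes varied too: 6 of them summed to 21.3 to 50 RPKM in WT and 23 to 54.4 in DKO. The sums were 113 to 119 in miR-23 Tg, 39.2 to 114 in miR-24 Tg, 119 to 335 in miR-27 Tg and 101 to 140 in cluster Tg. The part of cycling cells in the levels of the 8 genes was not tested. The highest B cell and myeloid sums were in library 1 of miR-24 Tg and library 3 of miR-27 Tg, so the calls that rest on these groups were recomputed without both, and those that ended are named. In bulk RNA, fewer cells of a type and less RNA per cell cannot be told apart.

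The microRNAs that set the genotypes recognise targets through bases 2 to 8, the seed, which is in capitals in the mature RNAs below (RefSeq, GRCm38.p6). They are shown because the seeds of miR-23 and miR-27 are alike but not the same.
miR-23a-3p: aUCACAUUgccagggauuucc
miR-24-3p: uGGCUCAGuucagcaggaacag
miR-27a-3p: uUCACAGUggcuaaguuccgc
In the longest annotated 3′ UTR of each gene (GENCODE M21, GRCm38), the DNA letters that pair with these seeds, AATGTGA for miR-23, CTGAGCC for miR-24 and ACTGTGA for miR-27, were found 5 times among the 8 genes. The 5 places are shown on the transcribed strand, the pairing letters in capitals, because they say which members could pair with which microRNA.
Stat5b, miR-23, chr11:100782981-100783009, minus strand: acaatactcgtAATGTGAagtgttaatac
Il2ra, miR-24, chr2:11691942-11691970, plus strand: tctcttaaccaCTGAGCCatctctacagc
Il2rb, miR-24, chr15:78480011-78480039, minus strand: tccactggaacCTGAGCCccgagtcccaa
Cish, miR-24, chr9:107300890-107300918, plus strand: tccaactctgaCTGAGCCaggcaccctgc
Il2ra, miR-27, chr2:11692983-11693011, plus strand: aggcccaacccACTGTGAaaggcaccacc
No such letters were found for Foxp3, Il2rg, Stat5a and Socs2. Among 10174 tested genes with a 3′ UTR, 16.3% held the miR-23 letters, 18.9% the miR-24 letters and 17.0% the miR-27 letters. A match is a description and not a shown target.

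Il2rb fell and Socs2 rose in miR-27 Tg, Il2rb and Stat5a fell in miR-24 Tg, and Il2rb fell in cluster Tg. These were 5 calls of 40 member tests against WT. For miR-27 Tg, 1 of 8 members was lower and 1 higher, where 28.6% of all genes were called, 12.7% lower and 15.9% higher. For miR-24 Tg, 2 of 8 were lower, where 8.98% of all genes were called and 4.38% were lower. For cluster Tg, 1 of 8 was lower, where 24.4% were called and 10.5% were lower. No member passed in miR-23 Tg, where 0.356% of all genes were called in either direction and 3 members had an unadjusted p under 0.05, or in DKO, where 0.0174% were called and no member was under 0.05 unadjusted. In miR-27 Tg and cluster Tg the share of members called was thus no larger than the share of all genes called, and is no result about the members as a set. An F test over all 6 genotypes passed for 4 of 8 members, Socs2 (adjusted p = 0.00017), Il2rb (0.000836), Stat5a (0.00514) and Stat5b (0.0222), beside 43% of all genes. These comparisons share the WT libraries, and the genes within a library are not independent.

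**Figure D1:**
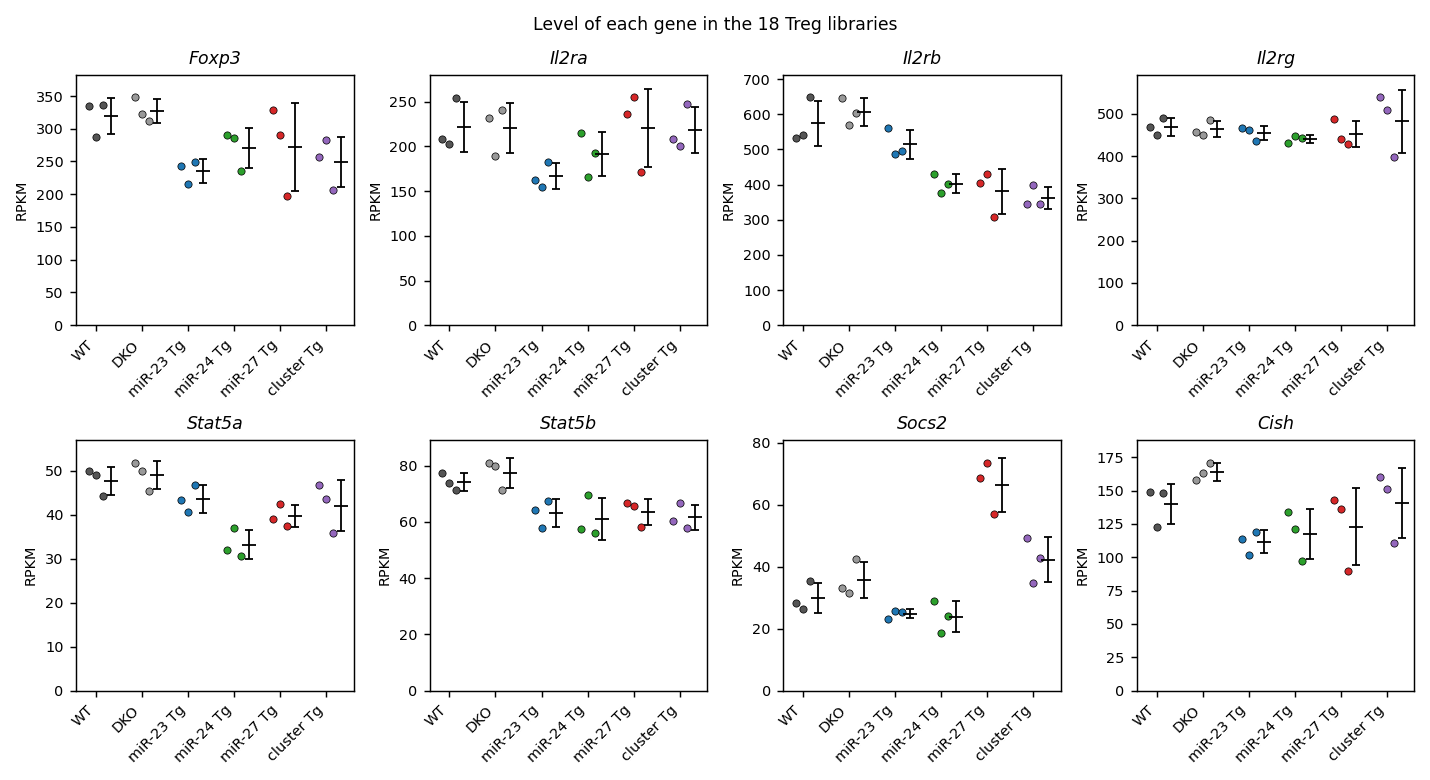
RPKM (vertical axis) of each of the 8 genes in the 18 libraries, by genotype (horizontal axis). Points are libraries and bars are the mean ± SD of 3. Il2rb of the miR-24, miR-27 and cluster Tg groups lies below every WT library, and Socs2 in miR-27 Tg lies above every other library. Of all genes, 30.5%, 42.8% and 40.5% had no overlap with WT in miR-24, miR-27 and cluster Tg.

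Il2rb (chromosome 15, 78479256 to 78495271, minus strand) encodes the beta chain, which the receptors of IL-2 and IL-15 share and which carries docking sites for STAT5. The WT libraries stood at 533, 542 and 648 RPKM, and the DKO libraries at 647, 568 and 603. In miR-24 Tg the values were 430, 377 and 401. The miR-27 Tg libraries held 404, 431 and 309, and the cluster Tg libraries 345, 399 and 344. All 9 libraries of these 3 genotypes were therefore below all 6 of WT and DKO, while miR-23 Tg, at 561, 487 and 494, overlapped WT. Against WT, Il2rb fell 1.51-fold in miR-27 Tg (381 ± 64.3 against 574 ± 64.3, adjusted p = 0.00309), 1.58-fold in cluster Tg (363 ± 31.5, adjusted p = 0.00205) and 1.42-fold in miR-24 Tg (403 ± 26.2, adjusted p = 0.0223). The miR-23 Tg level was 514 ± 41.3, with a difference of -0.16 and an interval from -0.43 to 0.11 (adjusted p = 0.628). DKO stood at 606 ± 39.7, with a difference of 0.08 and an interval from -0.19 to 0.35.

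Ordered by level, Il2rb ran DKO, WT, miR-23 Tg, miR-24 Tg, miR-27 Tg and cluster Tg, and no pair of neighbours in that order passed, with adjusted p from 0.0788 to 1. Further apart in the order, miR-23 Tg was above miR-27 Tg by 1.36-fold (adjusted p = 0.0209) and above cluster Tg by 1.42-fold (adjusted p = 0.0138). The first of these calls ended without the 2 libraries highest in B cell and myeloid markers (adjusted p = 0.106). DKO was above miR-24 Tg, miR-27 Tg and cluster Tg by 1.5-fold, 1.6-fold and 1.67-fold. The miR-24 Tg call was the least firm. It missed the threshold without miR-24 Tg library 2 (adjusted p = 0.0754), without miR-24 Tg library 3 (0.053), without WT library 3 (0.0954) and with only the 2 groups in the fit (0.0582), with a difference between -0.42 and -0.51. The calls in miR-27 Tg and cluster Tg held in each alternative run for them, with adjusted p up to 0.0405 and 0.0203.

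Libraries with lower Il2rb also had higher B cell and myeloid sums than WT. Without the 2 libraries highest in these markers, Il2rb differed from WT by -0.56 in miR-24 Tg (adjusted p = 0.0186) and by -0.45 in miR-27 Tg (adjusted p = 0.0177). Among the libraries kept, miR-27 Tg library 2 still had a B cell sum of 69.9, against 19.7 to 25.1 in WT. In miR-23 Tg the B cell sums were 37.9 to 46.9 and the myeloid sums 17.5 to 31.2, with Il2rb at 514 ± 41.3. In cluster Tg they were 30.1 to 45.9 and 14.9 to 18, with Il2rb at 363 ± 31.5. The part of other cells in any of these differences was not tested.

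**Figure D2:**
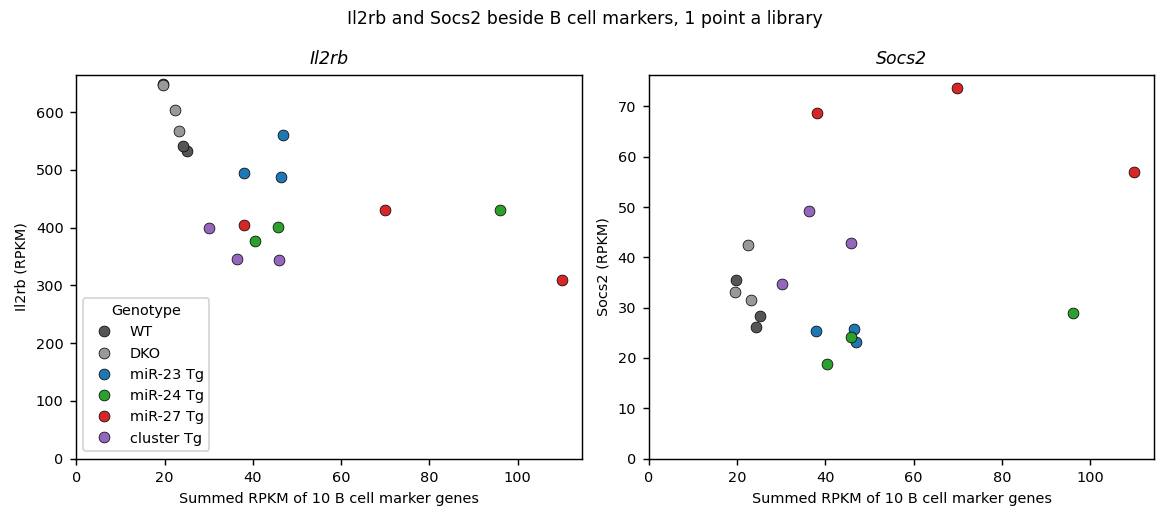
RPKM of Il2rb (left) and Socs2 (right) on the vertical axes against the summed RPKM of 10 B cell marker genes on the horizontal axes, with 1 point a library coloured by genotype. The B cell sums of miR-23 Tg and cluster Tg overlap. The miR-27 Tg library with the lowest sum, 38, has Il2rb at 404 and Socs2 at 68.6. The part of other cells in these levels was not tested.

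**Figure D3:**
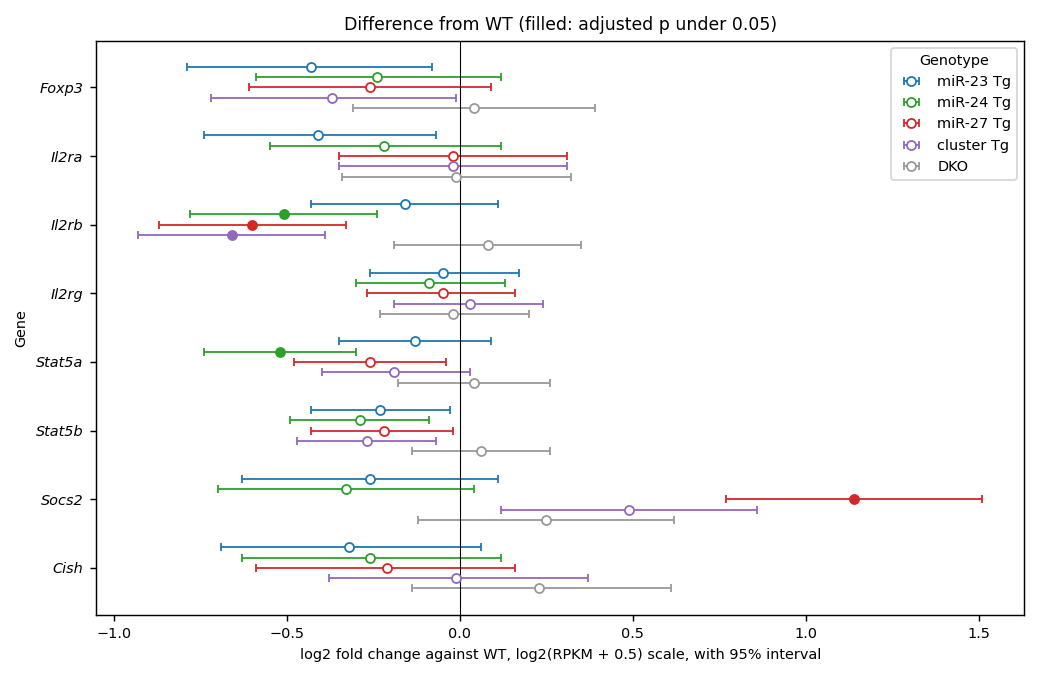
Log2 fold change against WT (horizontal axis) with its 95% interval for each gene (vertical axis) and genotype (colour). Filled points passed at adjusted p under 0.05: Il2rb in 3 genotypes, Stat5a in miR-24 Tg and Socs2 in miR-27 Tg.

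Il2ra (chromosome 2, 11642807 to 11693193, plus strand) encodes CD25, the alpha chain that gives the receptor its high affinity. The cells were sorted for high CD25, so the gate bears on this level directly and a difference between groups is not a free measurement. WT libraries held 208, 203 and 254 RPKM, DKO libraries 232, 189 and 241, and miR-24 Tg libraries 215, 166 and 193. The miR-27 Tg libraries spread from 172 to 255, with 236 between, and cluster Tg held 208, 200 and 248. Lowest were the miR-23 Tg libraries, at 163, 155 and 183, all below WT, in a comparison where 24.9% of all genes had no overlap. No comparison with WT passed. In miR-23 Tg the level was 167 ± 14.4 against 222 ± 28.2 (difference -0.41, interval -0.74 to -0.07, adjusted p = 0.257). For miR-27 Tg, cluster Tg and DKO the differences were -0.02, -0.02 and -0.01, with intervals that stayed within -0.35 and 0.32. Il2ra held the matching letters for miR-24 and miR-27, and it passed in neither genotype. Whether these places act was not tested.

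Il2rg (chromosome X, 101264378 to 101268255, minus strand) encodes the common gamma chain, which serves the receptors of IL-2, IL-4, IL-7, IL-9, IL-15 and IL-21. It was the steadiest of the 8 genes, from 399 RPKM in cluster Tg library 3 to 539 in cluster Tg library 1, a 1.35-fold range over all 18 libraries. Group means lay between 441 ± 8.71 (miR-24 Tg) and 482 ± 73.6 (cluster Tg), and WT was at 469 ± 20.7. The WT libraries, at 468, 449 and 491, overlapped those of each genotype other than miR-24 Tg, which held 431, 448 and 443. In that comparison 30.5% of all genes had no overlap. Differences from WT ran from -0.09 to 0.03, and their intervals from -0.30 to 0.24. None of the 15 pairs of genotypes passed.

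The chains were also set against each other within each library, as a ratio. Per length, Il2rb was 2.56, 2.67 and 2.55 times Il2ra in the WT libraries and 2.51 to 3.01 times in DKO. The ratio was 1.69 to 1.79 in miR-27 Tg, 1.39 to 2 in cluster Tg and 1.99 to 2.28 in miR-24 Tg, each below WT without overlap. In miR-23 Tg it was 2.70 to 3.44, above WT without overlap. By exact permutation, two-sided, each of these 4 contrasts gave p = 0.1, the lowest value possible with 3 libraries in either group, and an adjusted p of 0.214 over the 15 ratio tests. Since Il2ra was part of the sort, the ratio is a description. How often the ratios of other pairs of genes lie apart from WT in this way was not counted.

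**Figure D4:**
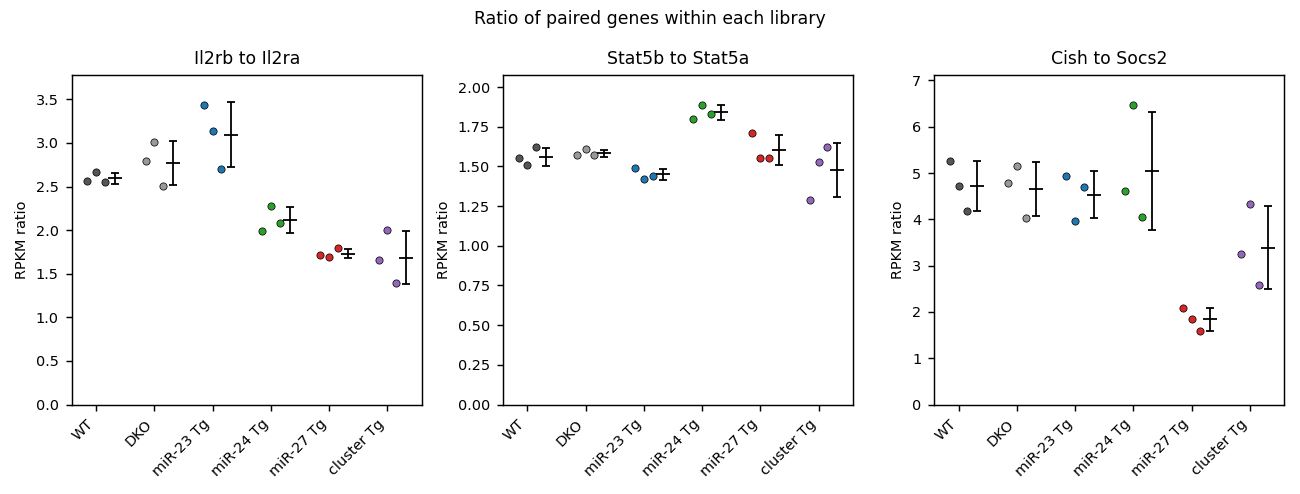
RPKM ratio of paired genes within a library (vertical axes) by genotype (horizontal axes). Points are libraries and bars the mean ± SD of 3. The Il2rb to Il2ra ratio is below WT in miR-24 Tg, miR-27 Tg and cluster Tg, the Stat5b to Stat5a ratio is 1.80 to 1.89 in miR-24 Tg, and the Cish to Socs2 ratio is 1.58 to 2.08 in miR-27 Tg.

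Stat5a (chromosome 11, 100859351 to 100885169, plus strand) and Stat5b (chromosome 11, 100780731 to 100850724, minus strand) are neighbouring genes that encode the transcription factors activated by the receptor. Their transcripts are alike: 15.8% of 50-base windows of Stat5a and 11.8% of those of Stat5b occur unchanged in the other. How reads that fit both were counted is not given in the sources used here, so the split between them is uncertain. Stat5a stood at 49.8, 49.0 and 44.1 RPKM in WT. In miR-24 Tg it was at 32, 36.9 and 30.6, with no overlap, as for 30.5% of all genes in that comparison. It fell 1.43-fold there (33.1 ± 3.33 against 47.6 ± 3.11, adjusted p = 0.00644), and the call held in all 13 alternatives, with adjusted p up to 0.0344, which was the value without the 2 libraries highest in B cell and myeloid markers. Its annotated 3′ UTR of 1173 bases held no match to the miR-24 seed.

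In the other genotypes, Stat5a was 39.0, 42.4 and 37.5 in miR-27 Tg, also below each WT library, where 42.8% of all genes had no overlap. The difference was -0.26 and just missed the threshold (adjusted p = 0.0689). It passed with median-of-ratios scaling (0.0484) and with the replicate number as a block (0.0443), and in none of the other alternatives, where adjusted p reached 0.219 (difference -0.22) without the 2 libraries highest in B cell and myeloid markers. Cluster Tg held 46.8, 43.6 and 35.7, miR-23 Tg 43.2, 40.6 and 46.8, and DKO 51.8, 49.8 and 45.4. Each of these groups overlapped WT. Directly compared, Stat5a was lower in miR-24 Tg than in miR-23 Tg by 1.31-fold (adjusted p = 0.0223), than in cluster Tg by 1.26-fold (0.0479) and than in DKO by 1.47-fold (0.00373). It was also lower in miR-27 Tg than in DKO by 1.23-fold (0.0393). Libraries of miR-24 Tg and cluster Tg overlapped. Without the 2 libraries highest in B cell and myeloid markers, the calls of miR-24 Tg against miR-23 Tg (adjusted p = 0.0844) and cluster Tg (0.14) ended. The call of miR-27 Tg against DKO ended too (0.147), and that of miR-24 Tg against DKO held (0.0224). The difference of miR-24 Tg from miR-27 Tg, its neighbour in level, did not pass (adjusted p = 0.0787).

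Stat5b, the more abundant of the pair per length, had WT libraries at 77.4, 74.0 and 71.2 RPKM and DKO libraries at 81.1, 80.0 and 71.3. The 4 overexpressing genotypes all lay below WT without overlap. Their libraries ran from 57.8 to 67.5 in miR-23 Tg, 56.0 to 69.6 in miR-24 Tg, 58.2 to 66.6 in miR-27 Tg and 57.9 to 66.7 in cluster Tg. The differences were -0.23, -0.29, -0.22 and -0.27 in that order, and none passed (adjusted p = 0.293, 0.0701, 0.0882 and 0.0509). Libraries of the 2 groups did not overlap for 24.9%, 30.5%, 42.8% and 40.5% of all genes in these comparisons, which share the WT libraries. Against DKO, Stat5b was lower in miR-24 Tg (1.27-fold, adjusted p = 0.0307), miR-27 Tg (1.22-fold, 0.035) and cluster Tg (1.25-fold, 0.0189). Without the 2 libraries highest in B cell and myeloid markers the first and second of these calls ended (adjusted p = 0.105 and 0.154). In miR-23 Tg, whose microRNA has the matching letters in the Stat5b UTR, the level was 63.2 ± 4.96. Its difference from DKO was -0.29 (1.22-fold, unadjusted p = 0.00751), about the size of that in miR-27 Tg, and did not pass after adjustment in its own comparison (adjusted p = 0.121). Without the same 2 libraries, the differences of Stat5b from WT were -0.25 (miR-24 Tg) and -0.16 (miR-27 Tg), with adjusted p = 0.202 and 0.301. Within libraries, the Stat5b to Stat5a ratio was 1.51 to 1.62 in WT and 1.80 to 1.89 in miR-24 Tg (two-sided exact permutation p of 0.1, adjusted p of 0.214).

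Socs2 (chromosome 10, 95385362 to 95417180, minus strand) encodes a feedback protein of the suppressor of cytokine signalling family, induced by STAT5 and best known for restraining growth hormone signalling. It showed the widest range of the 8 genes, 3.93-fold between miR-24 Tg library 2 (18.7 RPKM) and miR-27 Tg library 2 (73.6). In miR-27 Tg the libraries held 68.6, 73.6 and 56.9, above each of the other 15 libraries. Against WT, 42.8% of all genes had no overlap in this genotype. WT held 28.3, 26.2 and 35.4. The rise was 2.2-fold (66.3 ± 8.59 against 30 ± 4.82, interval on the log2 scale 0.77 to 1.51, adjusted p = 0.000385), and it held in all 13 alternatives, with log2 values from 1.05 to 1.26. Without the 2 libraries highest in B cell and myeloid markers it was 1.24 on the log2 scale (adjusted p = 0.000924). The transcript's 3′ UTR of 1163 bases held none of the 3 seed matches.

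Cluster Tg came next, at 49.3, 34.7 and 42.9 RPKM for Socs2, partly overlapping WT. Its difference from WT was 0.49 (interval 0.12 to 0.86) with adjusted p = 0.0531, just over the threshold. It passed with the replicate number as a block (0.0454), without cluster Tg library 2 (0.0302) and without WT library 3 (0.0369). In the other alternatives it did not pass, and it was 0.37 (adjusted p = 0.22) without cluster Tg library 1. DKO followed at 33.1, 31.5 and 42.4. At the low end, miR-23 Tg held 23.2, 25.8 and 25.4, all below WT, as 24.9% of all genes had no overlap in that comparison. The miR-24 Tg libraries held 28.9, 18.7 and 24.1. Neither passed against WT (adjusted p = 0.55 and 0.263). Between genotypes, Socs2 was higher in miR-27 Tg than in cluster Tg by 1.57-fold (adjusted p = 0.0373), than in DKO by 1.85-fold (0.0019), than in miR-23 Tg by 2.63-fold (0.000118) and than in miR-24 Tg by 2.76-fold (0.000101). Cluster Tg was above miR-23 Tg by 1.68-fold (0.00915) and above miR-24 Tg by 1.76-fold (0.00924), and DKO was above miR-24 Tg by 1.49-fold (0.0475). Of the 5 neighbouring pairs in the order, miR-27 Tg and cluster Tg were the one pair that passed.

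Cish (chromosome 9, 107296026 to 107302784, plus strand) encodes CIS, a second feedback protein that STAT5 induces. Of the 8 genes, 6 had an entry in the RefSeq promoter table (250 bases before to 50 after a start). The STAT5 pattern TTCNNNGAA, which reads alike on both strands, was found in 8.3% of 32851 promoters and at least 2 times in 0.46%. Cish held it 2 times, and it is shown, with the pattern in capitals, as the member whose promoter carries the pattern most often. A start of Foxp3 held it once, and the entries of Il2ra, Il2rg, Stat5a and Stat5b did not hold these letters in that window. Il2rb and Socs2 had no entry.
Cish, chr9:107296655-107296682, plus strand: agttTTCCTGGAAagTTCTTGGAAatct
Foxp3, chrX:7580340-7580356, plus strand: tgttTTCCAAGAAcggg

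For Cish, WT libraries stood at 149, 123 and 148 RPKM, and DKO, the highest group, at 158, 163 and 171, above WT without overlap. In miR-23 Tg the values were 114, 102 and 119, below WT without overlap. Libraries of the 2 groups did not overlap for 6.04% of all genes in DKO and for 24.9% in miR-23 Tg. The miR-24 Tg libraries held 134, 121 and 97.2, the miR-27 Tg libraries 143, 136 and 89.6, and the cluster Tg libraries 160, 151 and 111. No pair of genotypes passed for Cish among the 15. The difference of miR-27 Tg from WT was -0.21 with an interval from -0.59 to 0.16 (adjusted p = 0.403), and 0.00 without miR-27 Tg library 3. Beside a 2.2-fold rise of Socs2, the Cish to Socs2 ratio was 1.58 to 2.08 in miR-27 Tg and 4.17 to 5.25 in WT (two-sided exact permutation p of 0.1, adjusted p of 0.214). It was 2.58 to 4.34 in cluster Tg, which overlapped WT.

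Foxp3 (chromosome X, 7573644 to 7595245, plus strand) is the lineage factor itself. WT libraries held 334, 287 and 336 RPKM and DKO libraries 348, 323 and 312. The miR-23 Tg libraries, at 243, 215 and 249, and the cluster Tg libraries, at 257, 283 and 207, were below WT without overlap, as 24.9% and 40.5% of all genes had no overlap in these comparisons. In miR-24 Tg the values were 291, 286 and 236. The miR-27 Tg group was uneven, at 328, 290 and 197, and its lowest library was the one with the highest B cell sum. No pair of the 15 passed. Against 319 ± 27.9 in WT, the difference was -0.43 in miR-23 Tg (236 ± 17.8, interval -0.79 to -0.08, adjusted p = 0.255) and -0.37 in cluster Tg (249 ± 38.7, interval -0.72 to -0.01, adjusted p = 0.122). For miR-27 Tg it was -0.26 (interval -0.61 to 0.09), and -0.05 without miR-27 Tg library 3. In DKO the interval ran from -0.31 to 0.39. A comparison that did not pass does not show that Foxp3 was the same.

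Foxp3 and Il2rg lie on chromosome X. Xist, which female cells express, was at 1 RPKM or more in 10 libraries and lower in 8, with at least 1 library of each kind in every genotype. Annotated genes also overlap some members: Ccdc22 and Ppp1r3f on the opposite strand of Foxp3, Flicr on the strand of Foxp3, Gm20489 on the strand of Il2rg and Stat3 on the opposite strand of Stat5a. The counting is not stated to use strand, so reads from the overlaps cannot be told apart.

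Over the 10 pairs of genotypes without WT, 19 of 80 member tests passed: 7 for Socs2, 5 for Il2rb, 4 for Stat5a and 3 for Stat5b. Foxp3, Il2ra, Il2rg and Cish passed in none of them with all 18 libraries. Among all genes the share called was 28.4% between miR-27 Tg and DKO, with 4 members called, and 10.1% between miR-24 Tg and DKO, also with 4. It was 26.7% between cluster Tg and DKO with 2 members, 23.4% between miR-23 Tg and miR-27 Tg with 2, 18.8% between miR-23 Tg and cluster Tg with 2, and 11.5% between miR-24 Tg and cluster Tg with 2. It was 24% between miR-24 Tg and miR-27 Tg, 13.9% between miR-23 Tg and miR-24 Tg and 6.85% between miR-27 Tg and cluster Tg, with 1 member each. Between miR-23 Tg and DKO, where 1.77% of genes were called, no member passed and 5 had an unadjusted p under 0.05. Without the 2 libraries highest in B cell and myeloid markers, 16 of the 80 tests passed. The 6 calls that ended were Stat5a in miR-24 Tg against miR-23 Tg (adjusted p = 0.0844) and against cluster Tg (0.14), Stat5a in miR-27 Tg against DKO (0.147), Il2rb in miR-27 Tg against miR-23 Tg (0.106) and the Stat5b calls of miR-24 Tg and miR-27 Tg against DKO. The 3 gained were Il2ra lower in miR-23 Tg than in miR-27 Tg (1.47-fold, 0.0203), Cish lower in miR-24 Tg than in DKO (1.51-fold, 0.0358) and Foxp3 lower in cluster Tg than in DKO (1.33-fold, 0.03).

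Across the 18 libraries, the level of Cish ran with that of Foxp3. Among 10455 genes compared, the genes most like Foxp3 were Fam65a (Pearson r of 0.85 on the log2 scale), Cish (0.83) and Tmem131 (0.81). For Cish they were Foxp3 (0.83), Cnot4 (0.82) and Fam214b (0.80). With the mean of each genotype removed, r between Foxp3 and Cish was 0.92, so the libraries of one genotype that were low for Foxp3 tended to be low for Cish. Socs2, the other feedback gene, had r = 0.03 with Foxp3, 0.21 with Cish and 0.59 with Il2ra over the 18 libraries. With the genotype means removed these were 0.16, 0.37 and 0.75. Il2rb was most like Slc35d1 (0.95), Zscan29 (0.95) and Ampd3 (0.93), and Stat5a most like Carm1 (0.94), Mxd1 (0.91) and Khdrbs1 (0.89). Once the genotype means were removed, these fell to 0.60, 0.80 and 0.66 for Il2rb and to 0.83, 0.73 and 0.76 for Stat5a. Stat5a and Stat5b had r = 0.80 with each other. The genes most like Socs2 were Hmgn3, Egr3 and Hsd3b7, each at 0.89, but at 0.31, 0.34 and 0.24 with the genotype means removed. For Il2ra they were Igf2r (0.90), Zfp54 (0.85) and Lig4 (0.81), for Il2rg Ly6e (0.81), Naa60 (0.80) and Tmem248 (0.76), and for Stat5b Ttc38 (0.90), Mtmr3 (0.90) and Eml3 (0.89). These are descriptions over 18 libraries that share genotype, depth and admixed cells.

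Around the axis, 8 lists of genes were followed against WT. The counts of each list stand beside 28.6% of all genes called in miR-27 Tg, 24.4% in cluster Tg, 8.98% in miR-24 Tg, 0.356% in miR-23 Tg and 0.0174% in DKO. No list was tested as a set, so the counts describe the genes in it. Of the cytokines that use the common gamma chain, 3 of 6 were tested. Il21, a follicular helper cytokine, rose 3.86-fold in miR-27 Tg (9.80 ± 2.75 against 2.19 ± 0.757, adjusted p = 0.00108), 3.69-fold in cluster Tg and 3.48-fold in miR-23 Tg (adjusted p = 0.0493). It was also higher than WT, without passing, in DKO (5.31 ± 1.06, 2.2-fold, unadjusted p = 0.00533) and in miR-24 Tg (1.75-fold, adjusted p = 0.169). Il4 rose 4.15-fold in miR-27 Tg (6.24 ± 2.22 against 1.07 ± 0.0926, adjusted p = 0.00274) and 2.96-fold in cluster Tg. Il2 itself, which Treg cells hardly make, stood at 0.997 ± 0.469 in WT and at 1.49 to 2.75 in the other group means, and passed in no comparison with WT.

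Among 5 receptors that pair with the common gamma chain, 1 rose and 2 fell in miR-27 Tg, 1 rose and 1 fell in cluster Tg and 1 rose in miR-24 Tg. Il9r, the IL-9 receptor, rose 2.94-fold in miR-27 Tg (12.7 ± 2.69 against 3.96 ± 0.428, adjusted p = 0.00114), 2.82-fold in cluster Tg and 2.47-fold in miR-24 Tg. Il4ra, the IL-4 receptor chain, fell 1.58-fold in miR-27 Tg (50.5 ± 4.91 against 80.2 ± 5, adjusted p = 0.000436) and 1.40-fold in cluster Tg. Il21r fell 1.23-fold in miR-27 Tg (adjusted p = 0.0465). The median log2 change of the list was -0.18 for miR-27 Tg and 0.19 for cluster Tg, beside 0.01 and 0.02 over all genes.

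Of 10 tested kinases and adaptors, 3 rose and 3 fell in miR-27 Tg, and 1 rose and 3 fell in cluster Tg. The PI3-kinase subunit gene Pik3r1 fell 1.64-fold in miR-27 Tg (34.8 ± 4.42 against 57.8 ± 11.4, adjusted p = 0.00188) and 1.57-fold in cluster Tg, and Pik3cd fell 1.48-fold in cluster Tg (adjusted p = 0.0013) and 1.26-fold in miR-27 Tg (0.0236). Jak1, the receptor kinase, named after its values were seen, fell 1.26-fold in miR-27 Tg (146 ± 8.95 against 184 ± 10.4, adjusted p = 0.00557) and 1.18-fold in cluster Tg (0.0363). Mapk3 rose 1.38-fold in cluster Tg and 1.29-fold in miR-27 Tg, and Akt1 rose 1.35-fold in miR-27 Tg. None of the 10 passed in miR-24 Tg, where Pik3cd came closest (adjusted p = 0.111).

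Of the 5 other STAT genes, Stat2 rose 1.55-fold in miR-27 Tg (47.3 ± 7.46 against 30.2 ± 3.64, adjusted p = 0.00165) and 1.32-fold in cluster Tg. Stat6, which IL-4 activates, fell 1.22-fold in miR-27 Tg and 1.26-fold in cluster Tg. Stat4, which IL-12 activates, rose 1.40-fold in miR-24 Tg (59.2 ± 2.12 against 42.1 ± 2.16, adjusted p = 0.0105). Of 13 other SOCS, phosphatase and PIAS genes, 3 rose in cluster Tg, 2 in miR-27 Tg, and none fell. Counted in either direction, these shares are no larger than those of all genes called. Of all genes, 15.9% were called higher in miR-27 Tg. In cluster Tg 24.4% were called and 10.5% were lower, so rises alone took a smaller share of all genes than of this list. Socs5 rose 1.36-fold in miR-27 Tg and 1.35-fold in cluster Tg, the phosphatase gene Ptpn11 rose 1.42-fold in miR-27 Tg and 1.28-fold in cluster Tg, and Pias3 rose 1.33-fold in cluster Tg.

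Of 14 STAT5 response genes, 4 rose and 3 fell in miR-27 Tg, 2 rose and 3 fell in cluster Tg, and 1 rose and 2 fell in miR-24 Tg, and the rest did not pass. The cytokine gene Lif rose 2.48-fold in miR-27 Tg (13.1 ± 1.99 against 5.01 ± 0.853, adjusted p = 1e-04) and 1.71-fold in cluster Tg. Myc, the growth regulator, fell 1.57-fold in miR-27 Tg (51.2 ± 9.70 against 80 ± 9.23), 1.59-fold in cluster Tg and 1.34-fold in miR-24 Tg. The survival gene Mcl1 fell 1.36-fold both in miR-27 Tg and miR-24 Tg and 1.28-fold in cluster Tg. Prdm1, which encodes Blimp-1, rose 1.81-fold in miR-24 Tg (adjusted p = 0.0366). Medians of the list were 0.06, 0.11 and 0.00 in miR-27 Tg, cluster Tg and miR-24 Tg.

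Among 20 factors that act at the Foxp3 locus, 3 rose and 3 fell in miR-27 Tg, 5 fell in cluster Tg and 2 fell in miR-24 Tg. Counted in either direction, these shares are close to those of all genes called. None rose in cluster Tg or miR-24 Tg, where 10.5% and 4.38% of all genes were called lower, smaller shares than in the list. Bach2 fell 2.15-fold in cluster Tg (9.86 ± 2.16 against 21.4 ± 1.12, adjusted p = 0.000619) and 1.91-fold in miR-27 Tg, and Satb1 fell 1.85-fold in cluster Tg (34.5 ± 2.56 against 64.1 ± 4.41). The demethylase gene Tet3 fell 1.54-fold in cluster Tg. Dnmt1 and Uhrf1, which keep DNA methylated through cell division, rose 1.84-fold and 2.77-fold in miR-27 Tg. In the same comparison all 6 cycling-cell markers were higher, with sums of 119 to 335 RPKM against 21.3 to 50 in WT, and their part in the rise of Dnmt1 and Uhrf1 was not tested. In miR-24 Tg, Foxo1 fell 1.34-fold (55.6 ± 5.16 against 74.3 ± 2.96, adjusted p = 0.0147) and Ets1 fell 1.28-fold.

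Of 16 tested genes that are held high in Foxp3 cells, 6 rose and 2 fell in cluster Tg, 4 rose and 1 fell in miR-27 Tg, and 2 rose and 4 fell in miR-24 Tg. In miR-27 Tg that share is close to the share of all genes called. Tigit, an inhibitory receptor gene, rose 2.85-fold in cluster Tg (211 ± 75.2 against 70 ± 4.86, adjusted p = 0.000656) and 2.12-fold in miR-27 Tg. Ebi3, a subunit of IL-35, rose 2.65-fold in miR-27 Tg and 2.35-fold in cluster Tg, Klrg1, which NK cells also express, rose 4.37-fold in miR-27 Tg, and Nrp1 rose 1.84-fold in cluster Tg. With Klrg1, 3 of 5 tested NK cell markers were higher in miR-27 Tg, among them Klrd1 at 2.27 to 10.1 RPKM against 0.111 to 0.265 in WT, and their part in the rise was not tested. In miR-24 Tg, Gpr83 fell 6.88-fold, Folr4 fell 1.66-fold (393 ± 40.2 against 654 ± 62.9, adjusted p = 0.0102) and the ectoenzyme gene Nt5e rose 1.46-fold. In miR-23 Tg no gene of the lists but Il21 passed. There Ikzf4, a partner of Foxp3, came closest to passing in its list (25.1 ± 3.98 against 41.2 ± 2.85, adjusted p = 0.0809), and in DKO no gene of the lists passed. Without the 2 libraries highest in B cell and myeloid markers, the genes called over all lists were 28 in place of 33 in miR-27 Tg and 9 in place of 13 in miR-24 Tg. Calls ended for Stat4 (1.38-fold, adjusted p = 0.0519), Prdm1 (1.66-fold, 0.145), Ets1 (1.25-fold, 0.14) and Tigit (1.95-fold, 0.0765) in miR-24 Tg. In miR-27 Tg they ended for 7 genes, Il21r (adjusted p = 0.102), Pik3cd (0.0513), Stat6 (0.0815), Bcl2 (0.0995), Bcl2l1 (0.0614), Foxo1 (0.0723) and Lrrc32 (0.138), and 2 others, Pias3 and Ccnd2, gained one.

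**Figure D5:**
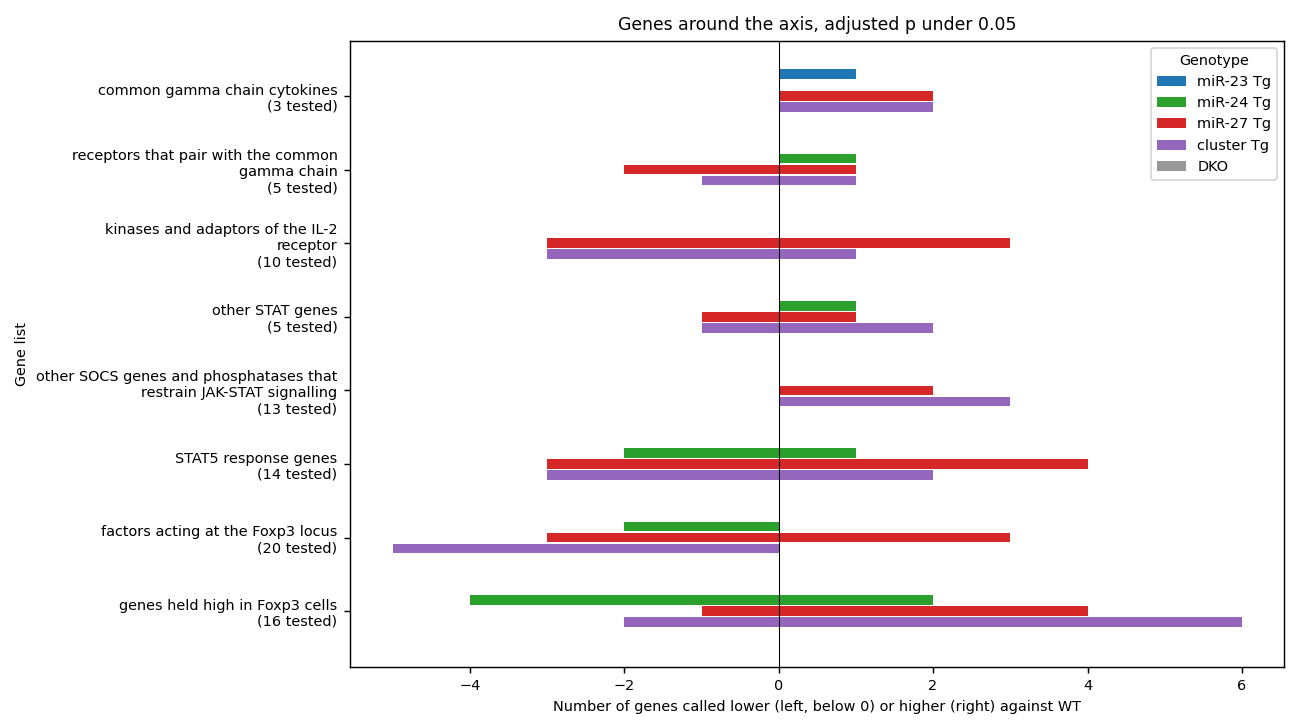
Number of genes called lower (bars left of 0) or higher (bars right of 0) against WT on the horizontal axis, for each gene list on the vertical axis, by genotype (colour), with the number tested in brackets. Calls come from miR-27 Tg, cluster Tg and miR-24 Tg, with 1 in miR-23 Tg and none in DKO.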

How the data were processed

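RNA-seq of 18 libraries was used. The authors deposited RPKM values, 1 column a library. Per the submitters' processing notes, STAR 2.2.0c, HOMER and mm10 (GRCm38) were used. The 3′ UTRs came from GENCODE M21 transcripts. The step that made the RPKM values, the annotation and the strand setting are not given in the sources used here. Per the labels' protocols, total RNA with small RNAs kept was made into TruSeq libraries. Depth was estimated from the steps between low RPKM values of 3090 single-transcript genes, where 22.1% to 31.6% of low values came within 0.05 of a whole read, so it is approximate.

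From 23953 entries, 4 with a repeated symbol were left out. A gene was kept where 3 libraries or more reached 1 RPKM. The 11520 genes kept were tested with limma 3.58.1 in R 4.3.3, with a mean-variance trend, on log2(RPKM + 0.5), all 6 groups in 1 fit, adjusted by Benjamini-Hochberg within each of 15 pairs of genotypes. Python 3.11.15, pandas 2.3.3 and matplotlib 3.10.9 were used for tables and figures. Fold changes are on the log2(RPKM + 0.5) scale. Ratios were compared by exact permutation. The method was tested on simulated data. Named genes of a list are at most 3 called genes with the smallest p in a comparison with WT, or the 1 with the smallest p where none was called. The genes most like a member are the 3 with the highest Pearson r, without predicted, clone, small RNA and receptor segment symbols. The members, lists and alternatives were chosen with earlier results of these data known. Alternatives changed the pseudocount to 0.1 or 1, dropped the filter, scaled by the median of ratios, fitted the compared pair of groups alone, added a block for the replicate number, and left out single libraries or the 2 libraries highest in B cell and myeloid markers. Plasma cell, CD8 T cell, NK cell, cycling cell and immediate-early markers were also summed.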

Additional observations from a re-analysis of the deposited data

How the results depend on the processing

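Of 496 alternative values for the 40 member differences from WT, 461 kept direction and side of the threshold, 4 lost a call, 9 gained one and 22 changed sign, all 22 of them for differences that were not called. The calls of members in miR-24 Tg went from 2 to 1 with only the 2 compared groups in the fit, and were 1 to 2 without single libraries. In cluster Tg the 1 call became 2 with median-of-ratios scaling (Stat5b, adjusted p = 0.0305) and 3 with the replicate number as a block (Stat5b at 0.0395, Socs2 at 0.0454), and 1 to 3 without single libraries. The 19 calls in the 10 pairs without WT became 11 with only the 2 compared groups, which have fewer residual degrees of freedom, and were 13 to 19 without single libraries. The F test called 3 to 6 members without single libraries. Without the 2 libraries highest in B cell and myeloid markers, Il2ra in miR-27 Tg turned to 0.15 and Cish to 0.00. Without single libraries, values that changed sign ran from -0.13 to 0.15 (Il2ra, miR-27 Tg), -0.11 to 0.08 (Il2ra, cluster Tg), -0.08 to 0.10 (Il2ra, DKO), -0.33 to 0.00 (Cish, miR-27 Tg), -0.11 to 0.16 (Cish, cluster Tg), -0.06 to 0.16 (Il2rg, cluster Tg), -0.05 to 0.02 (Il2rg, DKO), -0.03 to 0.08 (Foxp3, DKO) and -0.01 to 0.09 (Stat5a, DKO). The cause of these changes was not tested. The replicate numbers are no stated pairing: over 45 pairs of libraries of different groups with the same number, the median correlation of deviations was 0.00397, the lowest -0.167 and the highest 0.188, and 6 were over 0.1. These values are over all genes, and single genes can differ. Stat5a and Stat5b were lowest in library 3 of every genotype but miR-23 Tg. Immediate-early sums were lowest in library 3 of WT (1300), DKO (1590), cluster Tg (1490) and miR-27 Tg (563), but not of miR-23 Tg and miR-24 Tg. Whether libraries of the same number share a source was not tested. The block added Stat5a in miR-27 Tg (adjusted p = 0.0443) and the 2 calls in cluster Tg, and ended no call.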

Other observations

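Immediate-early genes, which respond within minutes to handling and to receptor signals, also varied between libraries of 1 genotype. The 8 genes Fos, Fosb, Jun, Junb, Egr1, Egr2, Ier2 and Dusp1 summed to 2810 to 3230 RPKM in miR-23 Tg, 912 to 3890 in miR-24 Tg, 563 to 1820 in miR-27 Tg, 1490 to 3400 in cluster Tg, 1590 to 3340 in DKO and 1300 to 3100 in WT. The lowest sum, 563, was in miR-27 Tg library 3, which also had the lowest Foxp3 (197), Il2rb (309) and Cish (89.6) of all 18 libraries. The part of these genes in the members' levels was not tested. Plasma cell genes summed to 46.7 to 55.3 in WT and up to 162 in miR-27 Tg, NK cell genes to 4.07 to 6.14 in WT and up to 28.0 in miR-27 Tg, and Cd8a with Cd8b1 to 16.3 to 17.7 in WT and up to 30.8 in miR-27 Tg.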
